A study of Mus musculus with 6 samples.

Results

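The genes described here are those by which cells recognise bacterial lipopolysaccharide (LPS) and related microbial molecules. Of the 10 genes chosen (Lbp, Cd14, Ly96, Tlr1, Tlr2, Tlr3, Tlr4, Tlr6, Myd88 and Irak4), 9 had an array probe set that names only that gene, out of 19938 genes with such a probe set. Irak4 was not measured under this rule. Each of the 9 had a single probe set of this kind, so taking the brightest left nothing to choose. The cells were C2C12, myoblasts of mouse origin, into which lentivirus had brought an shRNA, either directed at PARP2 (shPARP2) or scrambled (scPARP2). By the study's methods the PARP2 shRNA was kept up by puromycin selection, which is not stated for the scrambled line. Total RNA was profiled on Affymetrix Mouse Gene 1.0 ST arrays, 3 per line. Neither the labels nor the methods name LPS or another microbial ligand as a treatment, and the cultures are taken as they were grown. Because each condition is 1 line, the silencing cannot be told apart from whatever else distinguishes the lines. Whether the samples were separate cultures is not stated, and p-values here reflect only the spread between samples, which may be technical.

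LPS from the outer membrane of Gram-negative bacteria is picked up by LPS-binding protein (Lbp), handed to CD14 and loaded onto MD-2 (Ly96), which sits on the ectodomain of TLR4. TLR2 pairs with TLR1 or TLR6 to read bacterial lipopeptides, and TLR3 reads viral RNA in endosomes. All of these receptors except TLR3 signal through the adaptor MyD88 and the kinase IRAK4 to NF-kappaB, while TLR3, and TLR4 once internalised, use the adaptor TRIF (Ticam1). The pathway is best known in macrophages, and muscle cells are also known to carry TLR4 and to release cytokines upon LPS.

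The deposited values are log2 signals (RMA), and every difference below is shPARP2 minus scPARP2 on that scale. Parp2 itself was lower, with a difference of -1.07 (standard error, SE, 0.10, limma adjusted p = 0.00103), and the array medians lay between 7.04 and 7.18. Of 8 myoblast markers, all were measured and 6 were higher in shPARP2 cells (limma, adjusted p under 0.05), as were 12.4% of all genes. The 6 were Myf5, Des, Cdh15, Itga7, Chrna1 and Myog, while Myod1 and Pax7 did not pass (-0.20 and -0.05). Mean signals of the 8 ran from 7.16 for Pax7, a satellite cell factor, to 12.1 for Chrna1, a subunit of the acetylcholine receptor. Of 16 macrophage and leukocyte markers, 15 were measured, and 13 of these had a mean signal below the median of all probe sets (7.12). Their mean signals ran from 5.39 for Adgre1 (F4/80) to 7.74 for Cd68, the only one that passed the test (log2 fold change -0.72, SE 0.07, limma adjusted p = 0.00119). Lyz2, named after its value was seen, went the other way without overlap of the lines (0.67, SE 0.19, limma adjusted p = 0.0565). The median log2 fold change of the 15 markers was -0.03. The summed signal of the 15 markers on the linear scale was 1424 to 1524 on the scPARP2 arrays and 1277 to 1459 on the shPARP2 arrays. The 5 endothelial and 6 hepatocyte markers had mean signals of 5.20 to 6.79 and 5.34 to 7.42, and none passed the test. Fewer cells of a type and less RNA per cell cannot be told apart in such samples.

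The 9 genes differed in both directions between the lines. By the fit over all probe sets (limma, adjusted p under 0.05), 4 were lower in shPARP2 cells (Lbp, Tlr4, Tlr6 and Tlr1), 2 were higher (Tlr2 and Myd88) and 3 did not pass (Cd14, Ly96 and Tlr3). Of all genes, 24.0% were called, with 12.4% higher and 11.6% lower. The arrays of the lines did not overlap for 7 of the 9 genes, lower for 4 and higher for 3. Over all genes 42.1% did not overlap, 21.4% lower and 20.7% higher. The median difference of the 9 genes was -0.09, against -0.02 for all genes. These genes were chosen with this comparison known, so the calls are given as a description and no p-value is attached to them. The count of higher genes was 0 without any one of the arrays except shPARP2 replicate 3, where it was 1 (Tlr2), and it was 0 when each array was centred on its median, which left 4 lower and 0 higher. The count of lower genes was 2 (Lbp and Tlr4) without scPARP2 replicate 3 and 3 or 4 without any other array, because Tlr1 or Tlr6 no longer passed in some of these fits.

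**Figure D1:**
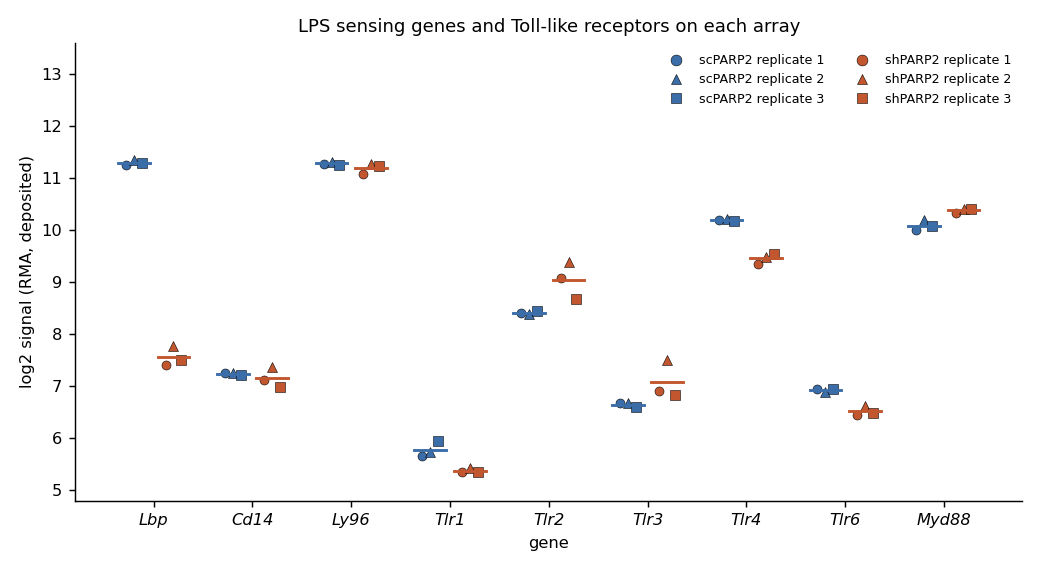
Deposited log2 signal (vertical axis) of the 9 measured genes on each of the 6 arrays. Blue points are scPARP2 and red points shPARP2 arrays, symbols mark the replicate number and bars are means of 3; Lbp has means of 11.29 and 7.57, and Tlr3 and Tlr2 are spread widely among the shPARP2 arrays. Levels of different genes are not comparable on this axis.

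Lbp, the serum protein that lifts LPS out of bacterial membranes, differed most. It read 11.24, 11.34 and 11.29 on the scPARP2 arrays and 7.41, 7.78 and 7.51 on the shPARP2 arrays. Every shPARP2 array lay more than 3 log2 units below every scPARP2 array. The means were 11.29 ± 0.05 (SD, n = 3) and 7.57 ± 0.19 (SD, n = 3), a difference of -3.73 (SE 0.11), which leaves 7.55% of the signal, or a 13.2-fold difference in signal. Ordered by this difference, Lbp ranked 9 from the lowest of the 19938 genes. Left-out arrays and other settings moved it between -3.84 and -3.65. The shPARP2 mean lay above the median signal of all probe sets (7.12), but no detection call was given. How much of the shPARP2 signal was background is therefore not known.

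The coreceptors that take LPS from Lbp read nearly the same in both lines. Cd14, the anchored or soluble LPS carrier, read 7.26, 7.26 and 7.21 on the scPARP2 arrays and 7.12, 7.37 and 6.99 on the shPARP2 arrays. The groups overlapped, and the difference was -0.08 (SE 0.10). The Cd14 probe set was brighter on average than 51.4% of all probe sets, and whether it read above background is not known. Ly96, the LPS pocket of the receptor complex, read 11.28, 11.31 and 11.26 in scPARP2 and 11.08, 11.27 and 11.23 in shPARP2 cells. The groups overlapped here as well, by the narrow margin between the highest shPARP2 array and the lowest scPARP2 array, and the difference was -0.09 (SE 0.07). The sign of the small Cd14 difference was not stable, with values from -0.18 to 0.0027 over left-out arrays and other settings, while that of Ly96 ran from -0.15 to -0.04.

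Tlr4, the signalling receptor for LPS, read 10.19, 10.21 and 10.17 on the scPARP2 arrays and 9.36, 9.49 and 9.54 on the shPARP2 arrays. The groups did not overlap and each was tight, with SDs of 0.02 and 0.09 (n = 3 each). The difference was -0.73 (SE 0.07), which leaves 60.5% of the signal, and 3.10% of all genes had a lower value. It lay between -0.78 and -0.67 under every left-out array and setting. Among the genes of the LPS complex, the signal of Lbp and Tlr4 was thus lower in shPARP2 cells, and those of Cd14 and Ly96 differed by less than 0.10.

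The lipopeptide receptors went in opposite directions. Tlr2, the shared subunit, read 8.40, 8.39 and 8.44 on the scPARP2 arrays and 9.08, 9.39 and 8.68 on the shPARP2 arrays. All shPARP2 arrays were higher, but they were spread apart, and the SD was 0.35 (n = 3) against 0.03 (n = 3). The difference was 0.64 (SE 0.17), a 1.56-fold higher signal. It was 0.47 without shPARP2 replicate 2 and 0.82 without shPARP2 replicate 3.

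Tlr6, one partner of Tlr2, read 6.96, 6.89 and 6.94 in scPARP2 and 6.45, 6.62 and 6.48 in shPARP2 cells. The groups did not overlap, and the difference was -0.41 (SE 0.07). Tlr1, the other partner, read 5.66, 5.74 and 5.94 in scPARP2 and 5.35, 5.43 and 5.35 in shPARP2 cells. Its difference was -0.40 (SE 0.09), and the groups did not overlap, but its probe set was among the dimmer ones, brighter on average than 20.5% of all probe sets (42.1% for Tlr6). Tlr1 and Tlr6 are close paralogs; the probe sequences were not used here, so how much either probe set reads the other transcript was not tested.

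Tlr3, the endosomal receptor for viral RNA, read 6.68, 6.67 and 6.60 on the scPARP2 arrays and 6.91, 7.51 and 6.83 on the shPARP2 arrays. Each shPARP2 array was above the scPARP2 arrays, but replicate 2 stood well above the other arrays of its line. The difference was 0.44 (SE 0.18) and fell to 0.22 without shPARP2 replicate 2. The Tlr3 probe set was brighter on average than 45.0% of all probe sets. Myd88, the adaptor of all these receptors but TLR3, read 9.99, 10.19 and 10.07 in scPARP2 and 10.33, 10.41 and 10.40 in shPARP2 cells. The groups did not overlap, and the difference of 0.29 (SE 0.08) is a 1.23-fold higher signal, with a range of 0.25 to 0.34 over left-out arrays and other settings.

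**Figure D2:**
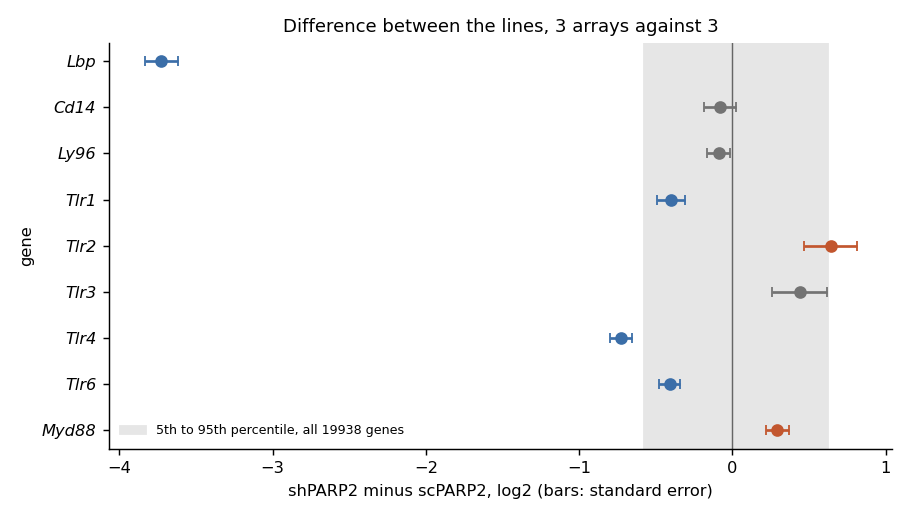
Difference between shPARP2 and scPARP2 cells in log2 units (horizontal axis) for the 9 measured genes, as points with standard errors from limma (3 arrays against 3). Blue and red mark the 4 lower and 2 higher genes called in the fit over all probe sets and grey the other 3. The shaded band spans the 5th to 95th percentile of all genes, -0.58 to 0.62, and Lbp at -3.73, Tlr4 at -0.73 and Tlr2 at 0.64 lie outside it.

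The shPARP2 arrays were less alike than the scPARP2 arrays. For 7 of the 9 genes the SD was larger in shPARP2 cells, with a median of 0.0959 against 0.0329, and over all genes the medians were 0.125 and 0.0613. Replicate 2 of shPARP2 read highest of its line for 8 of the 9 genes, where it did so for 34.3% of all genes. Its array median was the lowest of the 6 (7.04), and that of shPARP2 replicate 3 was the highest (7.18). Without shPARP2 replicate 2 the differences of Tlr2 and Tlr3 were 0.47 and 0.22, and without shPARP2 replicate 3 they were 0.82 and 0.56. With each array centred on its median they were 0.66 and 0.46, all in the same direction, although no gene of the 9 was then called higher.

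Promoter sequence was taken from the RefSeq table for GRCm38.p6 as the 250 bases before the annotated start, in the direction of transcription. Tlr1, Tlr2, Tlr3, Tlr6, Myd88 and Irak4 were matched; Lbp, Ly96 and Tlr4 were not, and Cd14 was not used here. Both strands were searched for the NF-kappaB consensus, for the interferon regulatory factor element (GAAA repeated after any 2 bases), for the AP-1 element TGANTCA and for the E-box CAGCTG, which 3.9%, 2.98%, 6.75% and 13.0% of the 32851 promoter windows hold. The 4 windows with a match are shown, those of Tlr2, Tlr3 and Myd88, which read higher, and 1 of Tlr6, which read lower. All lie on the minus strand, at chr3:83841609-83841858 for Tlr2, chr8:45410381-45410630 for Tlr3, chr9:119340019-119340268 for Myd88 and chr5:64959167-64959416 for Tlr6, and capitals mark the matches.
Tlr2: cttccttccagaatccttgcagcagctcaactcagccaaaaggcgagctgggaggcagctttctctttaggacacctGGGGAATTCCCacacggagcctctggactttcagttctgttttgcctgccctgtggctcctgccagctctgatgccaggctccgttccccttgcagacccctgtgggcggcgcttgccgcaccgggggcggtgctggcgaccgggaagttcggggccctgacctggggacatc
Tlr3: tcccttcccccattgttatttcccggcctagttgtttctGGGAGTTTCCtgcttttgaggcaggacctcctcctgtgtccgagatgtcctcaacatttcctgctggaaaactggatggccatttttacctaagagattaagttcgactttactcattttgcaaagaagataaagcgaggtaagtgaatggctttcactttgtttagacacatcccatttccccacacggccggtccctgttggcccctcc
Myd88: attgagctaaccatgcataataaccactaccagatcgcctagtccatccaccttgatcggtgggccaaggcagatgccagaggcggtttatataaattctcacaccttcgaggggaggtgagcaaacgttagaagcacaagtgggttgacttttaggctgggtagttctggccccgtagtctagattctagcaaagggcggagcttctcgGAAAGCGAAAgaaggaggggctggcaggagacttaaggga
Tlr6: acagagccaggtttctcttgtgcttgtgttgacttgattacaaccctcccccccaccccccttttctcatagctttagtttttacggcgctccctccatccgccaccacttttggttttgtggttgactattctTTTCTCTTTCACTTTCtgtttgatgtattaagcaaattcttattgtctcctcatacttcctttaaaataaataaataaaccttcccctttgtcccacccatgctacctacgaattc
The capitals are the NF-kappaB consensus in Tlr2 (2 overlapping matches) and Tlr3 (1 match), and the interferon regulatory factor element in Myd88 (1 match) and Tlr6 (2 overlapping matches). Neither window of Tlr1, the other window of Tlr6 nor the window of Irak4 held any of the 4 motifs. A match is a description of these letters and not a binding site. With no window read for Lbp, Tlr4, Ly96 or Cd14 and no signal for Irak4, matches cannot be related to direction here.

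Tlr1 and Tlr6 lie side by side on chromosome 5, on the same strand. Among genes with a single-gene probe set, the neighbours of the pair differed in direction, with Klf3, a zinc finger repressor, at -0.65 (limma adjusted p = 0.00196) on one side and Fam114a1 at 0.35 (limma adjusted p = 0.0250) on the other. Next to Lbp on chromosome 2 lie its relative Bpi, with a log2 fold change of 0.05 (SE 0.11), and Ralgapb, with -0.23 (SE 0.06, limma adjusted p = 0.0499). The difference of Lbp was thus not seen at that size in the flanking genes. Tlr4 lies between Trim32 and Brinp1, which had values of 0.02 and 0.03 and did not pass. Tlr2 lies between Sfrp2, a secreted Wnt modulator, at 3.08 (limma adjusted p = 0.00224) and Tmem131l at -1.16 (limma adjusted p = 0.000322). The neighbours were chosen after the values were seen.

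Around these genes, 116 other genes of the pathway were listed by role, and 105 were measured. Of these, 20 rose and 19 fell in shPARP2 cells and 66 did not pass the test (limma, adjusted p under 0.05), and the median log2 fold change was -0.02. Over all genes 12.4% rose and 11.6% fell. Without scPARP2 replicate 1, 2 or 3 the higher genes numbered 12, 12 and 9, and the lower ones 17 each time. Genes named below beyond the largest changes of a list were picked after their values were seen.

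Among the other Toll-like receptors, Tlr7, which reads viral RNA in endosomes, had a log2 fold change of 0.30 (SE 0.07, limma adjusted p = 0.0282). Only 11.0% of all probe sets were dimmer, and the call ended without any one of the scPARP2 arrays or without shPARP2 replicate 1 (adjusted p from 0.0567 to 0.131). Tlr8, Tlr9, Tlr12 and Tlr13 did not pass, with log2 fold changes from -0.13 to 0.06. Of 7 receptor partners and chaperones, 1 fell and 1 rose. Unc93b1, which carries the endosomal receptors out of the endoplasmic reticulum, read 9.18, 9.24 and 9.20 on the scPARP2 arrays and 7.72, 7.52 and 7.36 on the shPARP2 arrays. The groups were far apart, and Unc93b1 fell by 1.68 on the log2 scale (SE 0.10, limma adjusted p = 0.000243), a 3.20-fold difference in signal. Cnpy4, a chaperone relative tied to surface delivery of TLR4, rose by 0.63 (SE 0.08, limma adjusted p = 0.00333). Hsp90b1 (gp96), the general chaperone of these receptors, had a value of -0.11 (limma adjusted p = 0.494). Of the relatives of Lbp, neither Bpi, a bactericidal protein of neutrophils, nor Pltp, the phospholipid transfer protein, passed, with values of 0.05 and -0.02.

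Of 14 measured adaptors and proximal signalling genes, 5 rose and 3 fell. The ubiquitin ligase Peli1 rose by 0.66 (SE 0.08, limma adjusted p = 0.00235). Tirap, which bridges TLR2 and TLR4 to MyD88, rose by 0.52 (SE 0.10, limma adjusted p = 0.0123). Traf6, the ubiquitin ligase downstream of IRAK kinases, rose by 0.45, its partner enzyme Ube2n by 0.39 and the TRAF6-binding protein Ecsit by 0.44. Tab1 and Tab3, subunits of the TAK1 kinase complex, fell by 0.50 and 0.49, and the kinase Irak2 fell by 0.39. Ticam1 and Ticam2, the adaptors of the TRIF arm, had values of -0.09 and -0.08 with adjusted p-values of 0.567 and 0.560 (limma). The call of Tirap ended without scPARP2 replicate 3 (limma adjusted p = 0.0546), that of Ecsit without scPARP2 replicate 1 or 3 (0.0651 and 0.0691), that of Ube2n without any one scPARP2 array (0.0965 to 0.106) and that of Irak2 without each array but shPARP2 replicate 2 (0.0514 to 0.0901).

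In the NF-kappaB module, 11 genes were measured, of which 2 rose and 1 fell. Ikbkg (NEMO), the scaffold of the IkappaB kinase, read 10.13, 10.15 and 10.07 in scPARP2 and 8.98, 9.14 and 9.07 in shPARP2 cells. It fell by 1.05 (SE 0.07, limma adjusted p = 0.000336). Rel, the c-Rel subunit, rose by 0.82 (SE 0.12, limma adjusted p = 0.00488), and Nfkbia, the inhibitor that NF-kappaB itself induces, by 0.30 (SE 0.06, limma adjusted p = 0.0211). The call of Nfkbia ended without any one scPARP2 array or shPARP2 replicate 1 (adjusted p from 0.0546 to 0.109). Rela, the main activating subunit, had a value of 0.10 (limma adjusted p = 0.581). Of 6 genes of the interferon regulatory arm only Ikbke, a kinase of IRF factors, passed, with -0.40 (SE 0.07, limma adjusted p = 0.00858).

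Of 11 negative regulators, 4 rose and 2 fell. Trafd1, a feedback inhibitor, rose by 0.62 (SE 0.07, limma adjusted p = 0.00219). Tollip, which holds IRAK1 in check, rose by 0.55 (adjusted p = 0.00184), the ubiquitin ligase Rnf216 by 0.38 (adjusted p = 0.0138) and Irak3, the inactive IRAK kinase, by 0.26 (adjusted p = 0.0361, all from limma). Dusp1, a phosphatase of p38 and JNK, fell by 0.74 (SE 0.07, limma adjusted p = 0.00100) and Tnip1, a partner of A20, by 0.32 (limma adjusted p = 0.0362). Irak3 did not pass without any one of the 6 arrays (adjusted p from 0.0526 to 0.163), Tnip1 without any array but shPARP2 replicate 2 (0.0658 to 0.133) and Rnf216 without scPARP2 replicate 2 or 3 (0.0684 and 0.0703).

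**Figure D3:**
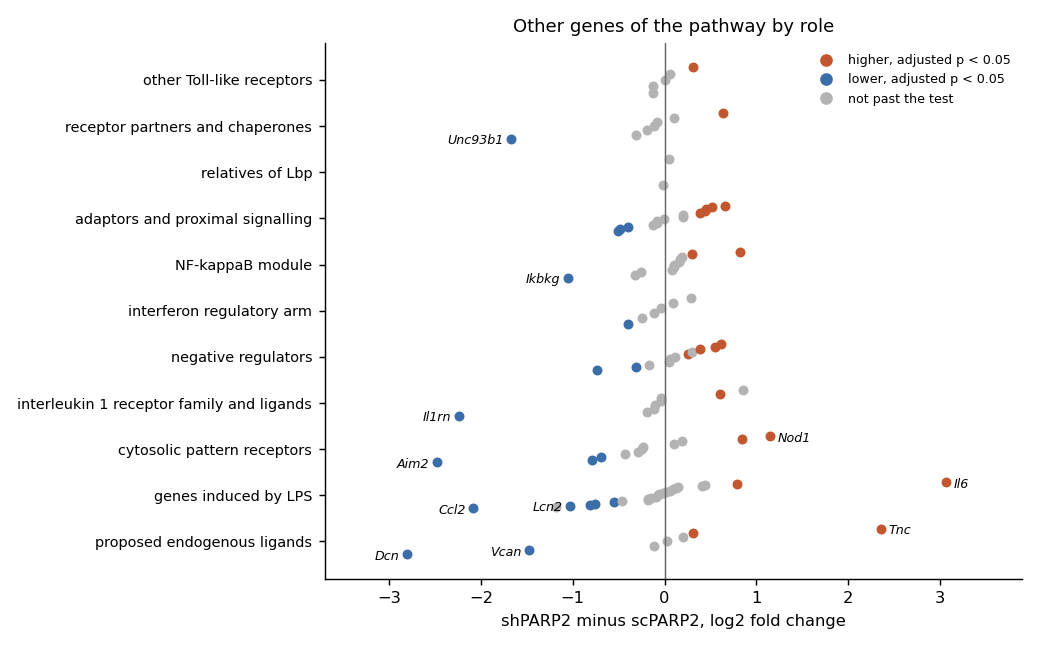
Log2 fold change between shPARP2 and scPARP2 cells (horizontal axis) of the 105 measured genes of the pathway in 11 lists by role, 1 point per gene. Red and blue points passed limma's test at an adjusted p under 0.05 and grey points did not; called genes beyond 1 log2 unit are labelled, from Dcn at -2.80 to Il6 at 3.07.

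In the interleukin 1 family, and among cytosolic receptors and their partners, the largest change was a fall. Of 8 measured genes of the interleukin 1 family, which signals through MyD88 and IRAK4 as well, 1 rose and 1 fell. Il1rn, the natural antagonist of the interleukin 1 receptor, read 9.21, 9.06 and 9.25 in scPARP2 and 6.78, 7.10 and 6.90 in shPARP2 cells. It fell by 2.24 (SE 0.10, limma adjusted p = 0.000104), to a shPARP2 mean of 6.93 that lay below the median signal of all probe sets. The cytokine Il18 rose by 0.60 (limma adjusted p = 0.0426) and did not pass without any array but shPARP2 replicate 3 (0.0646 to 0.135). Of 11 cytosolic receptors and their partners, 2 rose and 3 fell. Aim2, a sensor of cytosolic DNA, read 8.90, 8.86 and 8.84 in scPARP2 and 6.15, 6.64 and 6.36 in shPARP2 cells and fell by 2.48 (SE 0.13, limma adjusted p = 0.000134). Its shPARP2 mean of 6.38 also lay below the median signal of all probe sets. The RNA sensor Ifih1 (MDA5) fell by 0.79 (SE 0.12, limma adjusted p = 0.00570) and its adaptor Mavs by 0.70 (SE 0.09, limma adjusted p = 0.00310). Nod1, which reads bacterial cell wall peptides, rose by 1.15 (SE 0.11, limma adjusted p = 0.00134), and the protease Casp1 by 0.84 (SE 0.17, limma adjusted p = 0.0190). Casp1 did not pass without scPARP2 replicate 2 or 3 or shPARP2 replicate 1 (adjusted p from 0.0574 to 0.0726). The probe sets of Il18 and Casp1 were dim, brighter on average than 23.0% and 31.5% of all probe sets. Casp4, which binds LPS in the cytosol, had a value of -0.44 (limma adjusted p = 0.0629).

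Of 23 measured genes that LPS is known to induce, 2 rose, 5 fell and 16 did not pass. Il6, the interleukin 6 gene, read 5.85, 6.01 and 5.82 on the scPARP2 arrays and 8.80, 9.45 and 8.65 on the shPARP2 arrays. It rose by 3.07 on the log2 scale (SE 0.21, limma adjusted p = 0.000353). Its scPARP2 mean of 5.89 lay below the median signal of all probe sets (7.12), and the table gives no detection call, so it is not known whether Il6 was above background in those cells and no fold is given. Ptx3, a pattern recognition protein of the pentraxin family, rose by 0.79 (SE 0.17, limma adjusted p = 0.0200) and did not pass without any one scPARP2 array (0.0577 to 0.0763). The chemokine Ccl2 went the other way, from 12.59, 12.65 and 12.56 to 10.75, 10.99 and 9.81. It fell by 2.08 (SE 0.29, limma adjusted p = 0.00439), with shPARP2 replicate 3 lowest. The lipocalin Lcn2 fell by 1.03, the chemokines Cxcl5 and Ccl5 by 0.82 and 0.56 and the adhesion molecule Vcam1 by 0.76, with adjusted p-values of 0.00175 to 0.00522 (limma). Tnf, Il1b, Cxcl1 and Ptgs2, which LPS strongly induces in macrophages, had values of -0.18, -0.06, -0.07 and 0.09, with adjusted p-values of 0.134, 0.678, 0.678 and 0.411 (limma). Tnf and Il1b had scPARP2 means of only 6.53 and 6.29, and 10 of the 23 genes had a mean signal below the median. Larger values that did not pass were those of Ccl7 (-1.18), Cxcl10 (-0.46), Nos2 (0.44) and Il12b (0.41). Their adjusted p-values were 0.0533, 0.0760, 0.0809 and 0.0541 (limma). The list as a whole thus held no common direction, with a median of -0.07.

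**Figure D4:**
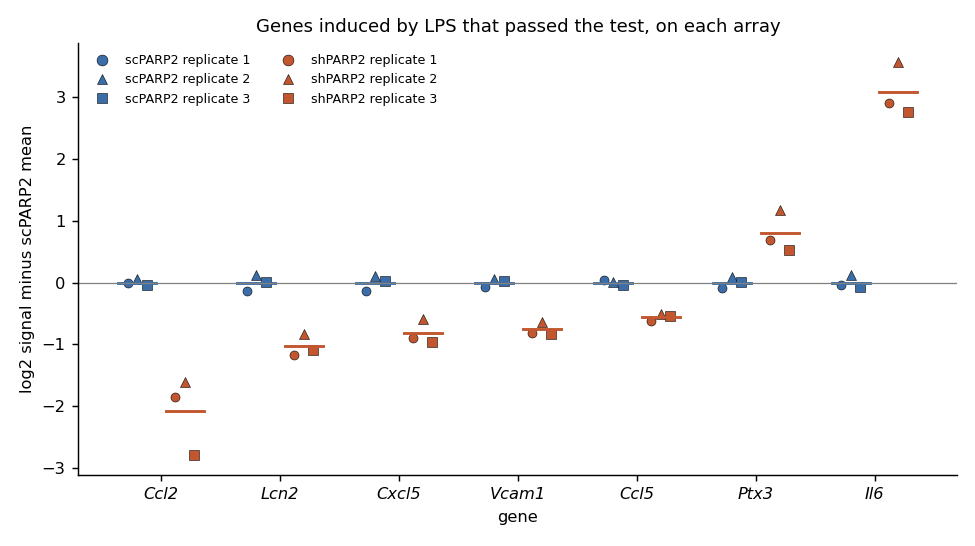
Log2 signal of the 7 genes known to be induced by LPS that passed the test, on each array, drawn relative to the scPARP2 mean (vertical axis, log2 units). Colours mark the line, symbols the replicate number and bars the means of 3; Ccl2, Lcn2, Cxcl5, Vcam1 and Ccl5 lie below 0 on every shPARP2 array, and Ptx3 and Il6 above it.

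Of 7 matrix and other proteins proposed as endogenous ligands of TLR2 or TLR4, 2 rose and 2 fell. Tnc (tenascin C) rose by 2.36 (SE 0.07, limma adjusted p = 2.77e-05) and Bgn (biglycan) by 0.31 (SE 0.06, limma adjusted p = 0.0195). Dcn (decorin) fell by 2.80 (SE 0.17, limma adjusted p = 0.000263) and Vcan (versican) by 1.48 (SE 0.07, limma adjusted p = 0.000124). Bgn did not pass without any one scPARP2 array (adjusted p from 0.0740 to 0.0922). Hmgb1, S100a8 and S100a9 did not pass, with values of 0.20, 0.03 and -0.12.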

How the data were processed

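Expression of 3 scPARP2 and 3 shPARP2 C2C12 samples was read from the deposited table of 35556 probe sets, whose log2 values come from RMA per the submitters' processing notes. Its version and the array library file were not given in the sources read. Probe sets were named from the platform annotation, with symbols updated through the mouse RefSeq gene table: 21789 name 1 gene, 1621 several and 12146 are not named here. A gene was read from its brightest single-gene probe set over the 6 arrays. As in the study's methods, limma (3.58.1, under R 4.3.3) compared the lines by lmFit and eBayes without covariates. P-values were adjusted by Benjamini-Hochberg across the whole table, at a threshold of 0.05. The fit was also run on simulated data with equal spread in both lines, which does not test the calls on these arrays. Genes, lists and tests were chosen with earlier results of these data known. For each other pathway list, the genes named are up to 4 called ones with the largest change, or the 2 of smallest p where none passed. Alternatives were quantile normalization, centring, the replicate number as a block, dropping dim probe sets (the lowest 40% by mean signal), stricter thresholds, array weights, a robust trended variance, restriction to single-gene probe sets, means of a gene's probe sets and leaving out each array. Arrays give no read depth; their number limits the precision. Figures were drawn with matplotlib 3.10.9.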

Additional observations from a re-analysis of the deposited data

How the results depend on the processing

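The differences of the 9 genes kept their direction under every alternative except that of Cd14, which lay near 0 throughout. All 143 recomputed values moved by less than the larger SD of the lines, but most could not have done otherwise. Stricter thresholds, the robust trended variance, the replicate block and the probe set filters leave each difference unchanged by construction. Leaving out an array cannot move the mean of its line by as much as the SD. Counts of calls moved more. Of the 9 genes, the higher ones numbered 0 after centring, 0 with the replicate number as a block, 0 at an adjusted p under 0.01, 1 at a change of at least 1.5-fold and 0 to 1 without an array, and the lower ones 2 at 1.5-fold and 2 to 4 without an array. Of the 105 pathway genes, the higher ones numbered 13 with the block, 9 at 0.01, 10 at 1.5-fold and 9 to 20 without an array, and the lower ones 17 to 25 without an array. Of all probe sets, higher calls numbered 3345, with 1736 at 0.01, 1458 at 1.5-fold and 1842 to 3449 without an array. Of all probe sets, lower calls numbered 3249, with 4941 under array weights, 1589 at 0.01, 1327 at 1.5-fold and 1761 to 3782 without an array. The cause of these moves was not tested, beyond the fewer arrays and stricter thresholds themselves.

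The replicate number marks no stated pairing, and deviations of same-numbered arrays correlated at -0.05, 0.09 and 0.01, with 2 of 6 arrays correlating best with their own number. With the block, of all probe sets, higher calls numbered 2455, and of all probe sets, lower calls numbered 2338. Over the largest changes of each list, 445 recomputed log2 fold changes kept their side of the threshold and 47 lost it. No called gene changed direction, while Bpi and Pltp, which did not pass and lay near 0, changed sign in some fits. Centring ended the calls of Tlr7, Il18, Irak2, Irak3, Ube2n and Tnip1 (adjusted p from 0.0552 to 0.115, limma). The replicate block ended these calls too, and those of Nfkbia, Bgn and Casp1 (adjusted p from 0.0506 to 0.101, limma). The robust trended variance ended those of Tlr7 and Irak3 (0.0797 and 0.0541), and quantile normalization that of Il18 (0.0697, all from limma). Of the 9 genes, Tlr1 was no longer called lower with the block or at an adjusted p under 0.01. Signal over background was not given. Tlr1 and, among the called pathway genes, Tlr7, Il18 and Casp1 fall under the filter on dim probe sets and were not tested there.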
